A study of Caenorhabditis elegans with 52 samples.

Results

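The 5 piRNAs 21ur-1078, 21ur-742, 21ur-6228, 21ur-4502 and 21ur-5876 were picked by name from 14680 piRNAs measured by small RNA sequencing in whole adult Caenorhabditis elegans. They were picked because their levels were high in double mutants lacking both PUP-1 and DISL-2, when set against the pup-1 single mutant. The members were thus chosen on measured values. Every comparison among the 4 groups of the pup-1 experiment is therefore given as a description, with no test. Tests were made only in libraries outside that experiment. Earlier results of these data were known when the members were chosen, so those tests may not be free of the choice.

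piRNAs are small RNAs of the germline that are bound by the Piwi protein PRG-1 and guide the silencing of foreign and endogenous transcripts. In this species most are transcribed as short capped precursors from a pair of clusters on chromosome IV, with TOFU-5 among the factors needed for that transcription. Their 3′ ends are trimmed by the exonuclease PARN-1 and then methylated by HENN-1. PUP-1 is a poly(U) polymerase that adds uridines to RNA 3′ ends, and DISL-2 is the homolog of DIS3L2, an exonuclease that degrades uridylated RNA from the 3′ end.

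The study asked how loss of DISL-2 and of PUP-1 changes piRNA levels and how fast piRNAs decline once their transcription is stopped. All animals were collected as day 1 adults grown at 20 °C, and the small RNA was treated with the phosphatase PIR-1 before library construction. Each of 21 groups had 2 libraries. The disl-2 isogenic control was compared with disl-2(how27) III and with disl-2(tm5337) III. The henn-1(tm4477) III mutant was compared with the double mutant that also carries disl-2(how18) III, and parn-1(tm869) V with the double mutant that also carries disl-2(tm5337). The pup-1 experiment had a paired control of its own, the single mutant pup-1(tm1021) III, a double mutant of disl-2(how27) with pup-1(how20), and a double mutant of disl-2(tm5337) with pup-1(how50). The pup-1 allele thus differed between the single mutant and each double mutant. In the time course, animals carried gfp::aid::tofu-5(how48) I and mCherry-tagged TIR1 under the sun-1 promoter, which is active in the germline, with or without disl-2(how27). They were given 4 mM auxin (indole-3-acetic acid), which triggers degradation of the tagged TOFU-5, and were collected at 0, 2, 4, 6 and 12 h; the 0 h samples carry the auxin label too.

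Levels are in RPM, reads per 1000000 reads of the library, as deposited by the authors. Depth was between 8807176 and 52798564 reads per library, so that the floor of 3 reads lay between 0.0568 and 0.3406 RPM, and every member was far above it in every library. The lowest value behind any member was 28 reads, of 21ur-6228 in a parn-1 library. Among the 11 steady-state groups, total piRNA level ran from 23609 ± 2935 RPM (SD, n = 2) in parn-1 to 279745 ± 21178 RPM in henn-1, against 78740 ± 4780 RPM in the disl-2 isogenic control. The pair of henn-1 libraries differed from each other most: the chi-square between their reads, divided by its degrees of freedom, was 38.24 over 8785 piRNAs. That ratio was 16.94 for pup-1; disl-2(how27) and 2.1 at its lowest, in the degron strain at 12 h. No pair held identical values. The samples are RNA of whole animals, in which fewer germ cells and less piRNA per germ cell cannot be told apart. The mutations themselves could not be checked here, because mRNA is not part of the table.

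All 5 genes lie on chromosome IV. Ordered along it in the WBcel235 annotation of RefSeq, 21ur-1078 has 2073 piRNA genes to its left, 21ur-742 has 3661, 21ur-6228 has 6451, 21ur-5876 has 9336 and 21ur-4502 has 9858. The gene of 21ur-1078 (WBGene00045678) lies inside kcc-2, a potassium-chloride cotransporter gene, and that of 21ur-742 (WBGene00047879) inside sorb-1. The other members, 21ur-6228 (WBGene00173525), 21ur-4502 (WBGene00048303) and 21ur-5876 (WBGene00169544), lie in no annotated coding gene. In the authors' classes, 21ur-4502 is Oogenic and the other 4 members are Spermatogenic. The members therefore come from several places in the chromosome and do not form a neighbourhood.

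Of the 5 members, 3 share their place with another annotated piRNA that is offset by 1 base: 21ur-6228 with 21ur-10508, 21ur-4502 with 21ur-7436, and 21ur-5876 with 21ur-11144. Counted in steps of 0.5 reads, their values were whole steps in all 42 libraries, but they were whole reads in only 19, 20 and 21 of them, so some reads were divided between places. By contrast, 21ur-1078 and 21ur-742 came to whole reads in 42 of 42 libraries. In the disl-2 isogenic control, 21ur-10508 stood at 151 and 118 RPM and 21ur-6228 at 132 and 102 RPM. There 21ur-7436 stood at 2.38 and 1.53 RPM and 21ur-11144 at 0.249 and 0.363 RPM, far below their partners. Values of 21ur-6228 are thus uncertain in how reads were split with a similarly abundant neighbour, and those of 21ur-4502 and 21ur-5876 much less so.

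The pup-1 experiment, in which the members were chosen, had the following levels. For 21ur-1078 the paired control libraries held 64.8 and 59.9 RPM and the pup-1 libraries 20.2 and 15.96 RPM. The double mutants held 152 and 138 RPM with disl-2(how27), and 111 and 85.5 RPM with disl-2(tm5337). Both double mutants thus stood above the pup-1 libraries and also above the paired control, with no overlap.

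For 21ur-742 the paired control held 53.8 and 31.3 RPM and pup-1 held 26.8 and 29.0 RPM. Its double mutants held 186 and 255 RPM with disl-2(how27), and 171 and 118 RPM with disl-2(tm5337). This member had the smallest shortfall in pup-1 and the largest excess of the 5 over the paired control, 5.26-fold in pup-1; disl-2(how27) and 3.43-fold in pup-1; disl-2(tm5337). These are log2 differences of 2.39 and 1.78, which became 3.08 and 2.41 with libraries rescaled to equal medians. The same rescaling moved 21ur-1078 from 1.21 and 0.64 to 1.90 and 1.27, and 21ur-6228 from 1.62 and 1.31 to 2.31 and 1.94.

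The most abundant member in the double mutants was 21ur-6228, at 88.8 and 88.2 RPM in the paired control and 46.8 and 31.4 RPM in pup-1. It reached 281 and 266 RPM when combined with disl-2(how27), and 257 and 189.7 RPM when combined with disl-2(tm5337). In pup-1; disl-2(how27) it ranked 12 by level among all piRNAs, against 176 in the paired control.

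The remaining members were the lower ones in the double mutants. For 21ur-4502 the paired control held 36.6 and 43.5 RPM, pup-1 held 8.20 and 8.87 RPM, the double mutant with disl-2(how27) held 34.1 and 69.3 RPM and that with disl-2(tm5337) held 75.4 and 50.0 RPM. For 21ur-5876 the paired control held 38.7 and 28.7 RPM, pup-1 held 5.95 and 6.42 RPM, the double mutant with disl-2(how27) held 25.6 and 45.2 RPM and that with disl-2(tm5337) held 47.3 and 35.6 RPM. Libraries of pup-1; disl-2(how27) overlapped the paired control for both, and those of pup-1; disl-2(tm5337) did so for 21ur-5876, while for 21ur-4502 they stood above it, 1.53-fold on average. With libraries rescaled to equal medians, the log2 differences from the paired control were 0.97 and 1.24 for 21ur-4502 and 0.72 and 0.93 for 21ur-5876, in pup-1; disl-2(how27) and pup-1; disl-2(tm5337).

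As log2 differences in RPM + 0.5 between group means, the members stood 2.97, 2.95, 2.82, 2.45 and 2.37 above pup-1 in pup-1; disl-2(how27), in the order 21ur-1078, 21ur-742, 21ur-6228, 21ur-4502 and 21ur-5876. These are the ranks 4, 6, 10, 38 and 53 of 5120 piRNAs that averaged at least 1 RPM. In pup-1; disl-2(tm5337) the differences were 2.41, 2.33, 2.51, 2.78 and 2.64, which rank 19, 22, 15, 6 and 11. The medians over all 5120 piRNAs were 0.09 and 0.19. The order of the members was not the same in the double mutants: 21ur-1078 was first with disl-2(how27) and 21ur-4502 was first with disl-2(tm5337).

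Against the paired control, pup-1 was lower by a log2 difference of -1.77 for 21ur-1078, -0.55 for 21ur-742, -1.20 for 21ur-6228, -2.16 for 21ur-4502 and -2.34 for 21ur-5876. The median of all piRNAs was -0.78, so 21ur-742 stood above that median and the other 4 below it. With libraries rescaled to equal medians, the difference of 21ur-742 turned to 0.20, and those of the others were -1.01 for 21ur-1078, -0.45 for 21ur-6228, -1.41 for 21ur-4502 and -1.59 for 21ur-5876. Shares of the piRNA reads gave other ratios than the RPM levels, beside total piRNA levels of 87362 ± 1877 RPM in the paired control and 46235 ± 6513 RPM in pup-1 (SD, n = 2). In reads per 1000000 piRNA reads, 21ur-742 was at 487 in the paired control and 603 in pup-1, so the direction of its group means turned. The rescaled difference of 0.20 was smaller than the replicate SD of this member, 0.39 before rescaling, so a rise is not shown. On that scale 21ur-6228 was at 1014 in the paired control, 846 in pup-1, 4171 in pup-1; disl-2(how27) and 3283 in pup-1; disl-2(tm5337). The same shares were 714, 392, 2209 and 1446 for 21ur-1078, 458, 185, 788 and 921 for 21ur-4502, and 386, 134, 540 and 609 for 21ur-5876.

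**Figure D1:**
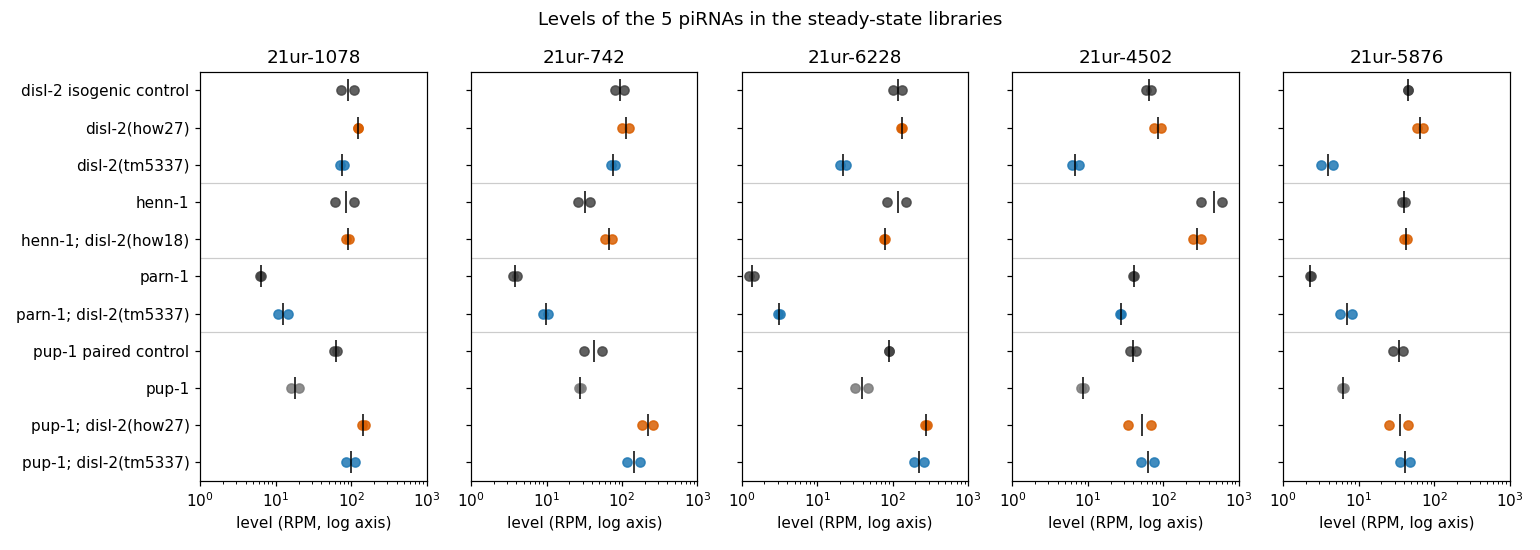
Level of each member in the 22 steady-state libraries, in RPM on a log axis; each point is a library, the vertical tick is the mean of the 2 libraries, orange marks the how27 and how18 alleles of disl-2 and blue the tm5337 allele, and grey or black marks groups with wild-type disl-2. For 21ur-5876, for example, the pup-1 libraries sit at 5.95 and 6.42 RPM and the disl-2(tm5337) libraries at 4.57 and 3.20 RPM, while libraries of the double mutant pup-1; disl-2(tm5337), with another pup-1 allele, sit at 47.3 and 35.6 RPM.

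In animals with wild-type PUP-1, the libraries of disl-2(how27) and disl-2(tm5337) differed. The labels name an isogenic control but do not say that the alleles share a background, so allele and background cannot be told apart. With disl-2(how27), 0 of the 5 members were called at an adjusted p under 0.05 (limma, Benjamini-Hochberg over all piRNAs tested), where 20.7% of 5618 piRNAs were. With disl-2(tm5337), 3 of the 5 members fell and none rose. Of the same 5618 piRNAs, 1511 fell and 760 rose, so that 40.4% were called in either direction.

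The isogenic control held 132 and 102 RPM of 21ur-6228, disl-2(how27) held 129 and 134 RPM and disl-2(tm5337) held 24.2 and 20.1 RPM. For 21ur-4502 the values were 68.6 and 59.3 RPM in the control, 93.2 and 75.5 RPM in disl-2(how27), and 7.54 and 6.06 RPM in disl-2(tm5337). For 21ur-5876 they were 44.4 and 45.5 RPM, 72.2 and 59.5 RPM, and 4.57 and 3.20 RPM. Both disl-2(tm5337) libraries were thus below every control and disl-2(how27) library for these 3 members. That held for 4 of the 5 members, 21ur-742 included, and for 41.3% of all piRNAs tested.

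The fall in disl-2(tm5337) was a log2 change of -2.37 ± 0.21 (SE, adjusted p = 2.3e-14) for 21ur-6228, -3.15 ± 0.23 (adjusted p = 5.8e-18) for 21ur-4502 and -3.39 ± 0.24 (adjusted p = 3.7e-18) for 21ur-5876. These are 5.17-fold, 8.85-fold and 10.5-fold lower levels, and the 3 members lay within the lowest 0.7% of changes over all piRNAs tested, whose median was -0.19. These p-values rest on a spread pooled over piRNAs, with 62.6 prior against 3 residual degrees of freedom. The piRNAs offset by 1 base had log2 changes of -2.17 (adjusted p = 2.5e-13) for 21ur-10508 and -0.65 (adjusted p = 0.0885) for 21ur-7436, while 21ur-11144 was too low to be tested.

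In the same libraries, 21ur-1078 and 21ur-742 were not called. The control held 109 and 73.7 RPM of 21ur-1078, disl-2(how27) held 123 and 122 RPM and disl-2(tm5337) held 70.6 and 79.0 RPM. For 21ur-742 the control held 107 and 81.9 RPM, disl-2(how27) 123 and 100.2 RPM and disl-2(tm5337) 79.9 and 72.3 RPM. In disl-2(tm5337) their log2 changes were -0.26 (95% interval -0.68 to 0.15, adjusted p = 0.325) and -0.30 (-0.71 to 0.11, adjusted p = 0.251). Both intervals leave out the log2 changes of the other 3 members.

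With disl-2(how27) the log2 changes of the members lay between 0.18 for 21ur-6228 and 0.54 for 21ur-5876, around the median of 0.47 over all piRNAs tested, and the adjusted p-values between 0.0911 and 0.508. After rescaling to equal medians, the changes of 4 members were below 0 and none was called. Single libraries moved these calls: without control replicate 1, 21ur-1078 was called, at a log2 change of 0.73 (adjusted p = 0.029), and without either disl-2(tm5337) library, which enter the same fit, 21ur-5876 was called (adjusted p = 0.0409 and 0.041).

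Tested directly, disl-2(tm5337) was lower than disl-2(how27) for all 5 members, a comparison added after the levels were seen. The log2 differences were -0.71 (adjusted p = 0.0028) for 21ur-1078, -0.55 (adjusted p = 0.0214) for 21ur-742, -2.55 (adjusted p = 5.1e-16) for 21ur-6228, -3.54 (adjusted p = 3.2e-20) for 21ur-4502 and -3.93 (adjusted p = 5.0e-21) for 21ur-5876. Of all piRNAs tested, 55.3% were called and the median difference was -0.66, which places 21ur-1078 and 21ur-742 at the middle of the distribution and the other 3 in its lowest 1.2%. After rescaling to equal medians, 21ur-1078 was at -0.05 and 21ur-742 turned to 0.12, and neither was called. The call of 21ur-742 was also lost without disl-2(how27) replicate 1 (log2 difference -0.40) and without disl-2(tm5337) replicate 2 (-0.47).

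The same tm5337 allele was present in the double mutant pup-1; disl-2(tm5337), in which 21ur-6228, 21ur-4502 and 21ur-5876 stood at 257 and 189.7, 75.4 and 50.0, and 47.3 and 35.6 RPM. The members were chosen on those libraries, so the difference from the disl-2(tm5337) single mutant was not tested. The single mutants pup-1 and disl-2(tm5337) each had low levels of 21ur-4502 and 21ur-5876, and the strain with mutations in both genes did not. The pup-1 allele was how50 in that strain and tm1021 in the single mutant, and the experiments had separate controls, so genotype, allele and experiment cannot be told apart here.

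Neighbouring piRNA genes had changes in both directions in disl-2(tm5337). The 10 nearest tested piRNAs of 21ur-6228, which include 21ur-10508, had 3 rises, 2 falls and a median log2 change of 0.06. The counts were 2 and 2 with a median of -0.27 for the neighbours of 21ur-4502, and 4 and 2 with a median of 0.21 for those of 21ur-5876. Around 21ur-1078, 1 rose and 2 fell (median -0.35), and around 21ur-742, 1 rose and 2 fell (median 0.10). Wider sets, all tested piRNAs whose names carry the same clone prefix as a member, had medians between -0.44 for the 23 of H16O14 with 21ur-1078 and -0.13 for the 431 of Y57G11C with 21ur-6228. By class, 146 Spermatogenic piRNAs rose and 583 fell of 1904 tested, and 205 Oogenic piRNAs rose and 256 fell of 1045.

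**Figure D2:**
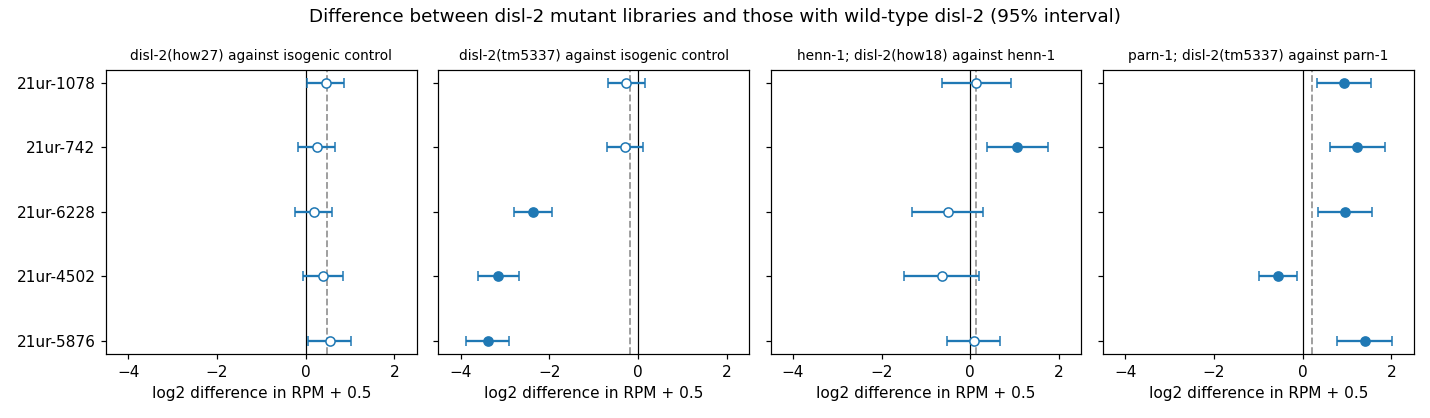
Log2 difference in RPM + 0.5 of each member in 4 comparisons of disl-2 mutants with matching libraries that carry wild-type disl-2; bars are 95% intervals from limma, filled points have an adjusted p under 0.05, and the dashed line is the median of all piRNAs tested. The members 21ur-6228, 21ur-4502 and 21ur-5876 lie far to the left with disl-2(tm5337), at -2.37, -3.15 and -3.39, and to the right of 0 with the same allele in the parn-1 mutant or, for 21ur-4502, at -0.55.

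In animals without PARN-1, the enzyme that trims piRNA 3′ ends, 4 of the members were rare and 1 was not. The parn-1 libraries held 6.37 and 6.23 RPM of 21ur-1078, 4.11 and 3.61 RPM of 21ur-742, 1.26 and 1.45 RPM of 21ur-6228, and 2.33 and 2.24 RPM of 21ur-5876. They held 39.9 and 40.8 RPM of 21ur-4502. Relative to the isogenic control of the disl-2 experiment, which is labelled as the control of disl-2, the 4 were between 13.3-fold and 62.9-fold lower and 21ur-4502 was 1.57-fold lower, beside a median of 2.13-fold lower over all piRNAs. As a share of all piRNA reads, in the same unit as above, 21ur-4502 was at 1708 in parn-1 and 812 in that control, while 21ur-6228 was at 57.5 and 1487.

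All 5 members were called as changed between parn-1 and parn-1; disl-2(tm5337), with calls that depended on the library set and the filter. The double mutant parn-1; disl-2(tm5337) held 14.5 and 10.7 RPM of 21ur-1078, 10.4 and 9.08 RPM of 21ur-742, 3.01 and 3.22 RPM of 21ur-6228, 8.21 and 5.67 RPM of 21ur-5876, and 26.8 and 27.8 RPM of 21ur-4502. The strains did not overlap for any of the 5 members, nor for 68.1% of all 4039 piRNAs tested. The log2 changes were 0.93 ± 0.31 (SE, adjusted p = 0.0104) for 21ur-1078, 1.23 ± 0.32 (adjusted p = 9.6e-04) for 21ur-742, 0.96 ± 0.31 (adjusted p = 0.00943) for 21ur-6228 and 1.40 ± 0.32 (adjusted p = 1.9e-04) for 21ur-5876. For 21ur-4502 the change was -0.55 ± 0.22 (adjusted p = 0.0343). Thus 4 members rose and 1 fell, where 34.5% of 4039 piRNAs were called and the median change was 0.22. These p-values rest almost wholly on a spread pooled over piRNAs, with 1830 prior against 2 residual degrees of freedom.

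The members' directions split by the authors' classes in this comparison: the 4 that rose are Spermatogenic and 21ur-4502 is Oogenic. Among all Spermatogenic piRNAs tested, 436 rose and 17 fell of 1065 (median log2 change 0.62). Among the Oogenic ones, 83 rose and 151 fell of 878 (median -0.11).

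Those calls depend on the library set. Without parn-1 replicate 1, 574 piRNAs were called and the calls of 21ur-1078 (log2 change 0.95), 21ur-6228 (0.89) and 21ur-4502 (-0.57) were lost. Without parn-1 replicate 2, 21ur-5876 alone was called among the members. Without replicate 1 of the double mutant the calls of 21ur-1078 (0.73) and 21ur-4502 (-0.53) were lost, and without its replicate 2 all 5 were kept. No direction changed in these settings. With no filter on low values, none of the 5 was called and 107 piRNAs were.

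The effect of disl-2(tm5337) in the parn-1 mutant was then set against its effect where PARN-1 is present, a comparison also added after the levels were seen. The labels do not place these strains in the same experiment, so the presence of PARN-1 and the experiment cannot be told apart here. All 5 members differed, with log2 differences of 1.19 (adjusted p = 0.00661) for 21ur-1078, 1.53 (adjusted p = 6.2e-04) for 21ur-742, 3.33 (adjusted p = 3.6e-10) for 21ur-6228, 2.59 (adjusted p = 2.1e-08) for 21ur-4502 and 4.79 (adjusted p = 2.5e-15) for 21ur-5876. Of 5116 piRNAs, 35.7% were called and the median was 0.38. Where PARN-1 is present 21ur-6228, 21ur-4502 and 21ur-5876 had fallen, and 21ur-4502 fell in both settings, at log2 changes of -3.15 and -0.55. The call of 21ur-1078 was lost with equal medians (0.74, adjusted p = 0.108), with no filter on low values (adjusted p = 0.108) and without control replicate 1 (0.91, adjusted p = 0.0885).

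The mutant of HENN-1, the methyltransferase of piRNA 3′ ends, had another order of the members. The henn-1 libraries held 317 and 605 RPM of 21ur-4502, above every group but henn-1; disl-2(how18). By contrast 21ur-742 was at 26.3 and 38.2 RPM in henn-1, below both isogenic control libraries at 107 and 81.9 RPM. The other members were at 60.2 and 109 RPM (21ur-1078), 82.8 and 152 RPM (21ur-6228), and 41.5 and 37.9 RPM (21ur-5876). Against that control the median piRNA was 3.23-fold higher in henn-1, and 21ur-4502 was 6.81-fold higher while 21ur-742 was 2.92-fold lower. These values are a description, since no control labelled for henn-1 was used here.

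In henn-1; disl-2(how18), 21ur-742 rose and no other member was called. It held 60.2 and 74.0 RPM in the double mutant, a log2 change of 1.06 ± 0.30 (SE, adjusted p = 0.0365), and 27.7% of 8769 piRNAs were called. The double mutant held 93.2 and 85.3 RPM of 21ur-1078, 76.8 and 80.0 RPM of 21ur-6228, 318 and 245 RPM of 21ur-4502, and 39.4 and 44.2 RPM of 21ur-5876. Those log2 changes were 0.14 (95% interval -0.65 to 0.92), -0.51 (-1.30 to 0.28), -0.65 (-1.49 to 0.20) and 0.07 (-0.53 to 0.67), with adjusted p-values between 0.205 and 0.846. Here 538 Spermatogenic piRNAs rose and 66 fell of 2540, and 117 Oogenic piRNAs rose and 263 fell of 1471.

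The wide spread of the henn-1 libraries bears on these calls. Without henn-1 replicate 1, the log2 change was -0.95 for 21ur-6228 and -1.11 for 21ur-4502. Without henn-1 replicate 2, the log2 change of 21ur-1078 was 0.56. Either fit leaves 1 henn-1 library, so its p-values hold the spread of the double mutant pair only and are not given here. The call of 21ur-742 was lost without replicate 1 of the double mutant (1.21, adjusted p = 0.199), without its replicate 2 (0.91, adjusted p = 0.382), with equal medians (0.83, adjusted p = 0.0809) and with no filter on low values (adjusted p = 0.126).

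Over the 11 steady-state groups, the order of levels differed between members. The highest group was pup-1; disl-2(how27) for 21ur-1078 (144.8 RPM), 21ur-742 (220.6 RPM) and 21ur-6228 (273.5 RPM), henn-1 for 21ur-4502 (460.5 RPM) and disl-2(how27) for 21ur-5876 (65.8 RPM). The lowest was parn-1 for every member but 21ur-4502, whose lowest was disl-2(tm5337) at 6.80 RPM.

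Some neighbours in this order did not separate. For 21ur-1078, libraries overlapped between pup-1; disl-2(tm5337), the isogenic control, henn-1; disl-2(how18), henn-1 and disl-2(tm5337), each with the next. For 21ur-742, pup-1; disl-2(how27) stood clear of pup-1; disl-2(tm5337), which overlapped disl-2(how27), which in turn overlapped the isogenic control. For 21ur-6228, both double mutants with pup-1 stood clear of each other and of every other group. For 21ur-4502, henn-1 overlapped henn-1; disl-2(how18), and the isogenic control, both double mutants with pup-1, parn-1 and the paired control overlapped each with the next, between 34.1 and 75.4 RPM. For 21ur-5876, the isogenic control, henn-1; disl-2(how18), henn-1, both double mutants with pup-1 and the paired control overlapped others, between 25.6 and 47.3 RPM.

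After auxin, all 5 members fell over the 12 h in both strains. In the degron strain, 21ur-6228 went from 124 and 132 RPM at 0 h to 22.8 and 22.6 RPM at 12 h. Over the same time 21ur-1078 went from 27.6 and 31.0 to 6.54 and 9.57 RPM, and 21ur-742 from 53.3 and 56.7 to 20.5 and 18.2 RPM. At 0 h 21ur-4502 stood at 22.3 and 24.1 RPM and 21ur-5876 at 46.9 and 55.0 RPM, and at 12 h they stood at 5.81 and 6.0 RPM and at 15.3 and 14.04 RPM. The 12 h libraries lay below the 0 h libraries for all 5 members, as they did for 90.4% of all piRNAs tested.

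The time between was uneven. At 4 h, 21ur-6228 stood at 48.1 and 97.0 RPM, the widest pair of any member and time in this strain. For 21ur-5876, libraries at 2 h (35.5 and 43.1 RPM) and 4 h (36.6 and 44.0 RPM) overlapped, and the 6 h libraries (13.3 and 17.0 RPM) lay near those of 12 h. For 21ur-742, the libraries at 2 h held 44.1 and 68.6 RPM, the second of them above both 0 h libraries.

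With disl-2(how27), 21ur-6228 began lower, at 59.1 and 60.0 RPM, and ended at 30.3 and 18.9 RPM. For 21ur-1078 the 0 h libraries held 24.0 and 24.2 RPM and the 12 h libraries 12.98 and 9.89 RPM. For 21ur-742 they held 55.4 and 51.6 RPM and then 36.6 and 28.0 RPM, after 27.7 and 20.6 RPM at 6 h. At 0 h 21ur-4502 held 14.4 and 16.8 RPM and 21ur-5876 held 29.3 and 33.8 RPM, and at 12 h 9.51 and 6.82 RPM and 20.5 and 15.96 RPM.

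**Figure D3:**
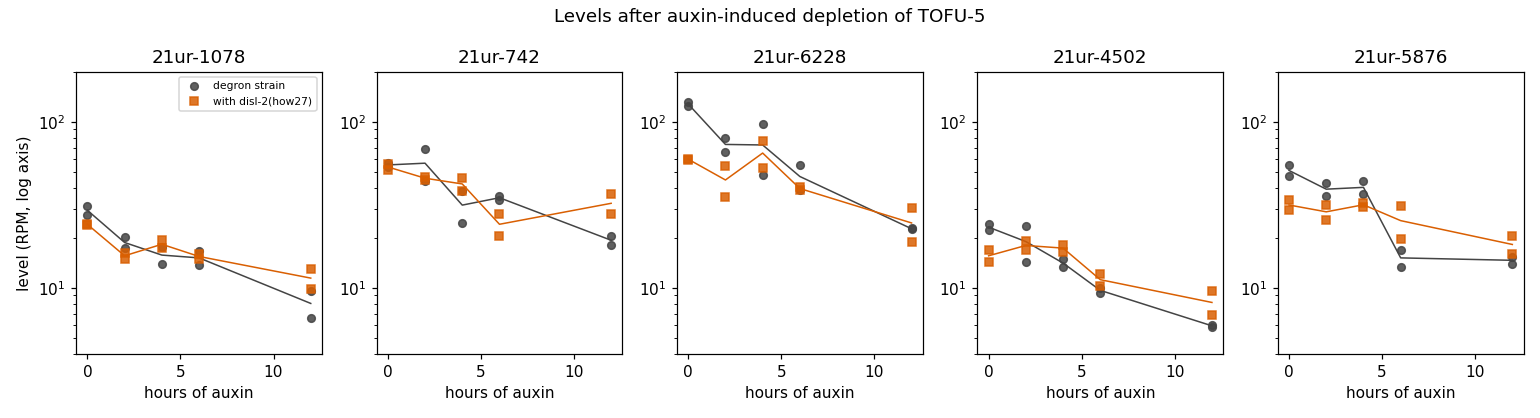
Level of each member in RPM, on a log axis, against hours of auxin in the TOFU-5 degron strain (circles) and the same strain with disl-2(how27) (squares); points are libraries and lines join the means of 2 libraries. At 0 h the degron strain lies above the disl-2(how27) strain for 21ur-6228, at 124 and 132 against 59.1 and 60.0 RPM, and at 12 h the strains overlap, at 22.8 and 22.6 against 30.3 and 18.9 RPM.

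Fitted as a straight line of log2 level on hours, the slopes in the degron strain correspond to apparent half-lives of 5.12 h (95% interval 4.05 to 6.98 h) for 21ur-6228, 6.24 h (4.96 to 8.41 h) for 21ur-4502, 6.32 h (4.78 to 9.36 h) for 21ur-5876, 7.21 h (5.61 to 10.1 h) for 21ur-1078 and 7.84 h (5.63 to 12.9 h) for 21ur-742. All 5 were shorter than the 9.56 h of the median slope over 4112 piRNAs. The interval left out that median for 21ur-6228, 21ur-4502 and 21ur-5876. That median slope, -0.105 log2 units per h, was -0.123 with a pseudocount of 0.1. By class, median slopes were -0.126 for Spermatogenic piRNAs and -0.089 for Oogenic ones. Beside them 21ur-1078 was at -0.139, 21ur-742 at -0.128, 21ur-5876 at -0.158, 21ur-6228 at -0.195 and the Oogenic 21ur-4502 at -0.16. Intervals of 21ur-1078, 21ur-742 and 21ur-5876 held their class median. The 5 falls were called with adjusted p-values up to 6.3e-05, where 82.1% of piRNAs were called. With equal medians, 2 of the 5, 21ur-6228 and 21ur-4502, were still called, among 898 piRNAs.

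With disl-2(how27) the half-lives were 9.56 h (6.39 to 19 h) for 21ur-6228, 10.9 h (7.53 to 19.9 h) for 21ur-4502, 13.4 h (8.77 to 28.6 h) for 21ur-1078, 14.8 h (8.49 to 57.1 h) for 21ur-742 and 15 h (8.48 to 65.3 h) for 21ur-5876. The median slope of all piRNAs corresponded to 13.9 h. Again all 5 falls were called, with adjusted p-values up to 0.0243, where 62.9% of piRNAs were called. The calls of 21ur-742 and 21ur-5876 were lost without disl-2(how27) 0 h replicate 2 (adjusted p = 0.0532 and 0.0522), without 12 h replicate 2 (0.0583 and 0.17) and with no filter on low values (0.0746 and 0.0867). That of 21ur-742 was lost without 0 h replicate 1 too (0.0551). With equal medians none of the 5 was called.

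**Figure D4:**
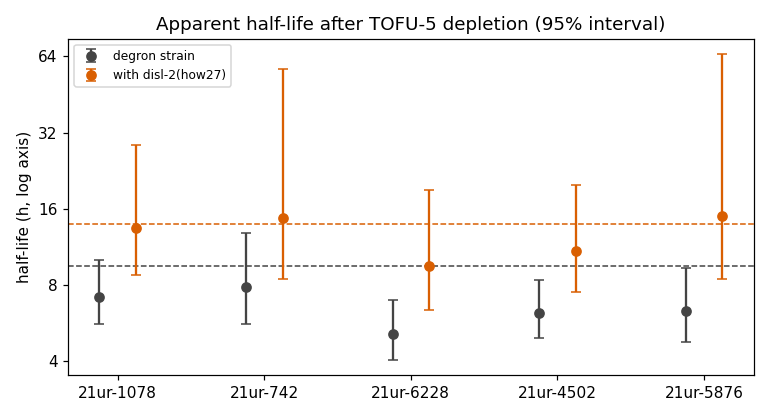
Apparent half-life of each member, in hours on a log axis, in the degron strain (grey) and the strain with disl-2(how27) (orange), with 95% intervals; dashed lines are the half-lives of the median slope over all piRNAs tested, 9.56 and 13.9 h. The orange point lies above the grey point for each of the 5 members, and the intervals overlap for each of the 5. For 21ur-742, for example, they are 8.49 to 57.1 h and 5.63 to 12.9 h.

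The difference of slopes between the strains passed the threshold for 0 of the 5 members and for 0% of the 4112 piRNAs tested with limma, of which 520 had an unadjusted p under 0.05. All 5 members had a shallower slope with disl-2(how27), by 0.06 log2 units per h for 21ur-1078 (adjusted p = 0.336), 0.06 for 21ur-742 (adjusted p = 0.459), 0.09 for 21ur-6228 (adjusted p = 0.297), 0.07 for 21ur-4502 (adjusted p = 0.323) and 0.09 for 21ur-5876 (adjusted p = 0.28). Their unadjusted p-values were 0.0263, 0.0944, 0.0173, 0.023 and 0.0153, in that order. The median difference of all piRNAs was 0.03. The 95% interval of 21ur-5876 ran from 0.02 to 0.16 and that of 21ur-742 from -0.01 to 0.13.

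Averaged over the 5 times, the level with disl-2(how27) did not pass the threshold for any member, where 4.72% of piRNAs were called. The log2 difference was -0.41 (95% interval -0.72 to -0.11, adjusted p = 0.101) for 21ur-6228, and between -0.09 and 0.06 for the other members. For 21ur-6228 the call appeared with equal medians (-0.47, adjusted p = 0.0294), without degron strain 4 h replicate 1 (-0.51, adjusted p = 0.0278) and without disl-2(how27) 12 h replicate 1 (-0.50, adjusted p = 0.0472).

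The piRNAs most like each member over the 21 group means, among 2548 that averaged at least 5 RPM, were found by Pearson's r of log2(RPM + 0.5). For 21ur-1078 they were 21ur-6450 (0.976), 21ur-6129 (0.969) and 21ur-4181 (0.961). For 21ur-742 they were 21ur-6544 (0.961), 21ur-2112 (0.947) and 21ur-2410 (0.944). For 21ur-6228 they were its overlapping neighbour 21ur-10508 (0.999), 21ur-2902 (0.967) and 21ur-2226 (0.966).

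For the Oogenic 21ur-4502 the most alike were 21ur-2827 (0.985) and 21ur-14514 (0.983), both Oogenic, and 21ur-35 (0.979), which has no class. For 21ur-5876 they were 21ur-7404 (0.925), 21ur-4101 (0.896) and 21ur-14188 (0.873), the lowest values of the 5 sets. Among the members themselves, 21ur-742 and 21ur-6228 were most alike (0.877), 21ur-6228 and 21ur-5876 followed (0.844), and the r of 21ur-4502 with the others was between 0.246 and 0.648. The group means share libraries and depth between piRNAs, so these values are descriptions, and the members were chosen on 4 of the 21 groups.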

How the data were processed

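The authors deposited a table of piRNA levels in RPM, normalised to sequencing depth per the labels. Trim Galore and Bowtie are named in the submitters' processing notes, with versions not given in the sources used here. No genome build is named in the sources used here, so no coordinates are printed, and piRNA sequences were not used here. The table had 14681 rows and 14680 piRNAs, since 1 was listed more than once, and all matched a gene name. A further 10 samples were not analysed here. The steady-state part listed 14581 piRNAs and the time course 14052.

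The most common value above 0 in a library was taken as 1 read, which gave its depth. Between 85.8% and 88.2% of values were whole reads within 0.01 read. Floors and depth cover counting error only.

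Fits were made in R 4.3.3 with limma 3.58.1, trend on, using log2(RPM + 0.5), a scale on which changes of low piRNAs are understated. Fold differences are of RPM + 0.5 too. A piRNA was tested where it averaged at least 1 RPM in the fitted libraries. Adjusted p-values are Benjamini-Hochberg over all piRNAs tested, with a threshold of 0.05. "Rose", "fell" and "called" refer to it. The isogenic control and both disl-2 alleles shared a fit, as did the 20 time-course libraries. Half-lives are -1 divided by the slope. Very small p-values rest on pooling of the spread over piRNAs. Separate cultures for the replicates are not stated in the labels, and p-values then measure no more than the spread of these libraries, possibly a technical one. The scripts were checked on simulated data.

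The members and lists were chosen with earlier results of these data known. The named piRNAs are the members, the 3 most alike of each by Pearson's r, and the overlapping piRNAs, the last added after the values were seen. Lists were the authors' classes, piRNAs of the same clone prefix and the 5 nearest tested piRNAs on each side. As alternatives, the pseudocount was 0.1 or 2, the filter was dropped, libraries were rescaled to equal medians, the replicate number entered as a block, or each library was left out in turn. The comparison of the disl-2 alleles and that of the disl-2(tm5337) effect with and without PARN-1 were added after seeing the data.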

Additional observations from a re-analysis of the deposited data

Results flagged for a closer look

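Levels in disl-2(tm5337) and disl-2(how27) differed for each of the 5 members by a test of the difference itself. Allele and strain background cannot be told apart in this comparison. The log2 differences of disl-2(tm5337) from disl-2(how27) were -0.71 for 21ur-1078, -0.55 for 21ur-742, -2.55 for 21ur-6228, -3.54 for 21ur-4502 and -3.93 for 21ur-5876. The first pair lay near the median of all 5618 piRNAs tested, -0.66, and 55.3% of those piRNAs were called. With equal medians 21ur-1078 was at -0.05 (adjusted p = 0.875) and 21ur-742 at 0.12 (adjusted p = 0.707), and with no filter their adjusted p-values were 0.118 and 0.157. The call of 21ur-742 was also lost when replicate 1 of disl-2(how27) or replicate 2 of disl-2(tm5337) was left out. For the other 3 members the levels in disl-2(tm5337) were between 3.20 and 24.2 RPM, against 59.5 to 134 RPM in disl-2(how27).

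The effect of disl-2(tm5337) also differed between the parn-1 mutant and animals with PARN-1. The presence of PARN-1 and the experiment cannot be told apart in this comparison. In the parn-1 mutant the effect exceeded that in animals with PARN-1 by a log2 difference of 1.19 for 21ur-1078, 1.53 for 21ur-742, 3.33 for 21ur-6228, 2.59 for 21ur-4502 and 4.79 for 21ur-5876. Of all 5116 piRNAs tested, 35.7% were called and the median was 0.38. The call of 21ur-1078 was lost with equal medians, with no filter and without control replicate 1. The parn-1 strains were low in 4 of these piRNAs to begin with, down to 1.26 RPM for 21ur-6228.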

How the results depend on the processing

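Of 820 alternative values of the members in tested comparisons, 752 kept their direction and side of the threshold, 40 lost a call, 10 gained one and 18 changed direction. The cause of each change was not tested. With equal medians the disl-2(how27) changes turned to -0.076 (21ur-1078), -0.28 (21ur-742), -0.35 (21ur-6228) and -0.14 (21ur-4502), and 95 piRNAs were called. That rescaling turned 21ur-742 to 0.12 between the alleles, where 3 members were called, beside 1364 piRNAs called higher and 1458 lower. With disl-2(how18) in henn-1, where 0 members were called beside 1133 piRNAs higher and 1414 lower, it turned 21ur-1078 to -0.094 and 21ur-5876 to -0.16. It left 2 members and 898 piRNAs called for the degron slope, and 0 members and 167 piRNAs for the slope with disl-2(how27), where 21ur-742 and 21ur-5876 turned to 0.006 and 0.008. Over the time course it gave 1 member and 441 piRNAs called, with 21ur-1078 at -0.011, and in pup-1 against its control it turned 21ur-742 to 0.20.

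With no filter on low values, 0 piRNAs were called for disl-2(how27), of 3052 with an unadjusted p under 0.05, and 0 for disl-2(how18) in henn-1, of 4333, so 0 members as well. Counts were 1003 piRNAs for disl-2(tm5337), 107 piRNAs and 0 members in parn-1, and 1047 piRNAs for the PARN-1 difference. Between the alleles 3 members were called, where 195 piRNAs were called higher and 1948 lower. The slope with disl-2(how27) was called for 3 members, where 42 piRNAs were called higher and 2334 lower. The difference of slopes was called for 1 piRNA and the time-course mean for 110.

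Replicate numbers did not pair the samples: correlations of same-numbered deviations lay between -0.44 and 0.45. With the replicate block, 1 member was called for disl-2(how27), 21ur-5876 (adjusted p = 0.0435), and 21ur-4502 lost its call in parn-1 (adjusted p = 0.111). Of all piRNAs, that block gave 1563 higher and 4 lower for disl-2(how27), and 911 higher and 330 lower in parn-1.

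Leaving out each library in turn, members called ranged from 0 to 1 for disl-2(how27), 0 to 3 in henn-1, 1 to 5 in parn-1, 3 to 5 for the slope with disl-2(how27) and 0 to 1 for the time-course mean. All piRNAs called ranged from 1 to 1950 for disl-2(how27), 1509 to 2283 for disl-2(tm5337), 2027 to 3497 between the alleles, 566 to 5768 in henn-1, 574 to 1564 in parn-1 and 88 to 259 for the time-course mean. Log2 values that crossed 0 ranged from -0.005 to 0.37 for 21ur-6228 with disl-2(how27) and from -0.54 to 0.019 for 21ur-1078 with disl-2(tm5337). In henn-1 they ranged from -0.29 to 0.56 for 21ur-1078 and from -0.009 to 0.15 for 21ur-5876, and over the time course from -0.025 to 0.08 for 21ur-1078 and from -0.009 to 0.14 for 21ur-742. Where a library is left out, the lone one is assumed to vary like the others. Depth limits the lowest levels: in parn-1 the 95% Poisson counting intervals of 21ur-6228, 0.84 to 1.83 and 1.0 to 1.98 RPM, overlapped between libraries.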
